A study of Mus musculus with 13 samples.

Results

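Macrophages were picked out of 2 droplet single-cell libraries of uninjured mouse hindlimb muscle by the RNA of complement C1q. A cell was taken as a macrophage when it held at least 3 unique molecular identifiers (UMIs, each standing for 1 captured RNA molecule) summed over C1qa, C1qb and C1qc, at least 1 UMI of Lyz2, and no UMI of the B cell gene Cd79a or the T cell gene Cd3d. These conditions were met by 204 of 12441 cells. Library 1 gave 106 of 6144 cells (1.73%, exact 95% binomial interval 1.41% to 2.08%) and library 2 gave 98 of 6297 (1.56%, 1.27% to 1.89%). These intervals cover counting error only.

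Muscle holds macrophages also without injury, mostly in the connective tissue around fibres and fascicles. Tissue macrophages take up dead cells and debris, recycle iron and lipid, and pass signals to stromal and immune cells. C1q, the first component of the classical complement pathway, tags dying cells and immune complexes, and in most tissues macrophages are its main source. Tissue macrophages are often sorted by Lyve1, Folr2, Timd4 and Cd163, which mark long-lived resident cells, against Ccr2 and high major histocompatibility complex (MHC) class II, which mark cells renewed from blood monocytes.

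All animals were wild-type C57BL/6 mice aged 2 months. The single-cell group was mononuclear cells of uninjured hindlimb muscle, freed mechanically and by enzymes and loaded on the 10x Chromium platform (n = 2 libraries). The bulk groups, sorted from hindlimb muscle of the same strain, age and genotype, were SMMC made to proliferate over 3 days in culture (3 libraries), SMMC allowed to differentiate in culture (3 libraries), SMMC collected fresh (3 libraries) and fresh quiescent muscle stem cells (MuSC, 2 libraries), all read by Smart-seq2. SMMC are smooth-muscle or mesenchymal-like cells, sorted as negative for CD31, CD45, Sca1 and VCAM1 and positive for ITGA7, and MuSC were sorted the same way except that they were positive for VCAM1. The labels do not say whether the libraries of a group came from separate animals, and a p-value here reflects the spread of these libraries alone, which may be technical.

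The C1q genes lie side by side on mouse chromosome 4, within chr4:136880126-136898844 of build GRCm38 (mm10), a stretch of 18719 bases, in the order C1qb, C1qc, C1qa. C1qb spans chr4:136880126-136886200, C1qc chr4:136889801-136892936 and C1qa chr4:136895916-136898844. Pf4, which encodes platelet factor 4 (CXCL4) and lies at chr5:90772435-90773383, and F13a1, which encodes the A subunit of coagulation factor XIII and lies at chr13:36867178-37050244, are the other markers of these cells. The RefSeq promoters of C1qb, C1qc and Pf4 (GRCm38.p6, 250 bases before to 50 after the start site, 5′ to 3′ on the gene's strand) are shown because these genes define the cells. Capitals mark GAGGAA or its reverse complement TTCCTC, the core of the sequence bound by PU.1, the myeloid transcription factor encoded by Spi1.
C1qb: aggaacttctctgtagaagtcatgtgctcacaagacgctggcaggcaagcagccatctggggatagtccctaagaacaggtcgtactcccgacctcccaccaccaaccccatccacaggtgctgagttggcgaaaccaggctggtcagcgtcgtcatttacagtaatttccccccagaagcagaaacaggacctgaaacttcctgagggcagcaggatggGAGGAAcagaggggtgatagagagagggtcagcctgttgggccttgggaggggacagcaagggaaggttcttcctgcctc
C1qc: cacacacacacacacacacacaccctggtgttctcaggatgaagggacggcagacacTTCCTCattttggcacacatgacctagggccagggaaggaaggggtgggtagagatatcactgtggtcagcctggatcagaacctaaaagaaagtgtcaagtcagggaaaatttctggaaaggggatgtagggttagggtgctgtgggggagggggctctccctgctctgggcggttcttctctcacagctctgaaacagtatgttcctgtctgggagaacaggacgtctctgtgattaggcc
Pf4: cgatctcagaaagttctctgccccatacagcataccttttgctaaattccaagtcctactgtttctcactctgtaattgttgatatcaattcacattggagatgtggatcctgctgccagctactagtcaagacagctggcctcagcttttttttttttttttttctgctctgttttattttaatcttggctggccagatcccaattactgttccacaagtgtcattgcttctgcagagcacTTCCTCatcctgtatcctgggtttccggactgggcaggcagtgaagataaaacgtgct
The C1qb promoter (chr4:136886151-136886450, minus strand) held GAGGAA 30 bases before the start site. The C1qc promoter (chr4:136892865-136893164, minus strand) held TTCCTC 193 bases before it, and the Pf4 promoter (chr5:90772185-90772484, plus strand) 8 bases before it. In C1qc and Pf4 the match was to the longer form, GAGGAAGT or its reverse complement ACTTCCTC, which contains the shorter one. Either form was sought on both strands of the promoters of the 25 genes named next, of which 18 had an entry: 14 of the 18 (77.8%) held GAGGAA, among them Ms4a7, Mrc1, F13a1 and Trem2, against 8446 of all 27025 genes (31.3%). GAGGAAGT was held by 3 of the 18 (C1qc, Pf4 and F13a1), against 997 of 27025 genes (3.69%). A gene with several start sites was counted when any of them held the motif, and a match is a description of the letters only.

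The macrophages were deeper than the rest of their libraries. Their median was 4264 UMIs per cell in library 1 and 3087 in library 2, against 2493 and 2013 in all other cells, and the median number of genes was 1446 and 1179, against 1046 and 890. Summed over the cells, they gave 460165 and 302049 UMIs, which is the depth behind each value given for them. The libraries shared 53 cell barcodes, of which 0 belonged to a macrophage. Mitochondrial genes took 3.39% and 2.63% of macrophage UMIs, against 2.81% and 2.45% in the other cells. Scrublet, which scores each cell against simulated doublets, called 54 cells of library 1 (0.879%) and 3 of library 2 (0.0476%), 0 of them macrophages, and the second share is too low for the call to be taken as having worked there.

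The rule set its limit on C1q, so the values on both sides of it are given as a description. A macrophage held a median of 42.5 C1q UMIs in library 1 and 25.5 in library 2, up to 152 and 98. Just inside the limit, 5 and 11 macrophages held 3 to 7 C1q UMIs. Just outside it, 6 and 4 cells held 2, 78 and 172 cells held 1, and 5947 and 6019 cells held none. Requiring Lyz2, which encodes lysozyme M, removed no cell with 3 C1q UMIs, while the Cd79a and Cd3d conditions removed 7 and 4. Macrophages near the limit had a median of 6 and 8 Lyz2 UMIs, against 44 and 30.5 over all macrophages.

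A low share of other cells held C1q UMIs as well, and whether these came from free RNA, doublets or the cells themselves was not tested. C1qa was seen in 97.2% and 93.9% of macrophages, C1qb in 99.1% and 98.0%, and C1qc in 96.2% and 93.9%. Cells with UMIs of both B cell genes Cd79a and Cd79b (1451 and 679 cells, median 2233 and 1643 UMIs) held a UMI of any 1 of these genes in 0.138% to 0.736% of cases. Cells with UMIs of both endothelial genes Pecam1 and Cdh5 (1053 and 1067 cells, median 2131 and 1852 UMIs) did so in 0.285% to 1.31%. Lyz2 spread more widely, with a UMI in 5.10% and 6.04% of the Cd79a and Cd79b cells and in 3.61% and 11.5% of the Pecam1 and Cdh5 cells, against all macrophages by rule.

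The levels of macrophage core genes describe the cells and do not test the label, since the cells were chosen by C1q and Lyz2 in these same counts. Levels are given as CPM, the UMIs of a gene per 1000000 UMIs summed over a set of cells, first in library 1 and then in library 2. The rule used 4 of the 20 macrophage core genes. Of the other 16, 15 were at least 4-fold above all other cells in both libraries, against 4.98% of all genes compared. Several of them, such as Csf1r and Adgre1, reached the limit of 20 CPM for this comparison in macrophages only. The exception, Laptm5, a lysosomal membrane protein of all blood cells, stood at 485 and 467 CPM against 204 and 165. Csf1r, the receptor for the growth factor that macrophages need to survive, had 741 and 755 CPM in macrophages, against 7.04 and 3.88 CPM in other cells. Adgre1, which encodes F4/80, had 302 and 252 CPM against 4.13 and 2.04. Ptprc, the gene of the pan-leukocyte antigen CD45, had a UMI in 62.3% and 27.6% of macrophages. The RNA values do not show how long a cell had been in the tissue.

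Markers of other cells were low but not absent. Pdgfra, Flt3, Clec9a, Cxcr2 and Myh11, which mark fibro-adipogenic progenitors, dendritic cells, cross-presenting dendritic cells, neutrophils and smooth muscle, had 0 UMIs in the macrophages of both libraries, which allows up to 6.52 and 9.93 CPM (3 UMIs of the total). Other members of these lists were above other cells, with the dendritic genes Batf3 at 32.6 and 43.04 CPM against 4.34 and 7.23 and Cd209a at 95.6 and 72.8 CPM against 15.9 and 20.9, and the neutrophil gene Mmp9 at 45.6 and 26.5 CPM against 2.06 and 3.29. Ccr7 (6.52 and 9.93 CPM against 234 and 188) and S100a8 (128 and 119 CPM against 616 and 944) were below. The 7 progenitor genes summed to 1321 and 1020 CPM in macrophages, against 19306 and 17198 CPM in all other cells, with a median of 2 and 3 UMIs per macrophage and up to 356 and 31 in 1 cell. The 7 endothelial genes summed to 752 and 745 CPM, against 4600 and 4422, and the 6 B cell genes to 28.3 and 79.5 CPM, against 1425 and 682. The muscle stem cell list summed to 1017 and 917 CPM, against 775 and 1181, nearly all of it from Sdc4 and Vcam1, while Pax7 had 2.17 and 0 CPM. Fewer than 2 UMIs of each other type were held by 20 of 106 and 11 of 98 macrophages, and fewer than 10 by 84 and 87. The comparison with other cells was repeated without the macrophages that held more.

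Macrophages had more Folr2, Ms4a7, Pf4, C3ar1 and Mrc1 than the rest of the muscle cells, each by over 100-fold in both libraries, and less Myoc, Acta2 and Rarres2. Of 5617 genes with at least 20 CPM in macrophages or other cells of both libraries, 280 (4.98%) were at least 4-fold higher and 462 (8.23%) at least 4-fold lower in macrophages of both libraries. The median of the smaller of both folds over all 5617 genes was 0.689. The cells were chosen by their RNA, with 1 value per library, so these folds are a description with no test, and they depend on which other cells the libraries hold. Without library 1 the lower genes numbered 753 and without library 2 they numbered 721, since a gene then has to pass in 1 library only. Without macrophages that held 10 or more UMIs of another type, an alternative added after seeing the data, 285 genes were higher and 489 lower. Without macrophages that held 2 or more, which left 20 and 11 cells, 65 were lower. The 25 genes named next were then still between 15.9-fold and 1274-fold higher. Of these, 9 had a smaller fold that moved by over 1.5 times without those cells: Ccl3 (18.5-fold instead of 77.3-fold), Il10 (33.7 instead of 115), Fcrls (15.9 instead of 38.1), P2ry6 (31.9 instead of 60.2), Fcgr3 (29.0 instead of 51.5), Cd33 (27.3 instead of 43.99) and Ms4a7 (206 instead of 311) were less high, and F13a1 (233 instead of 147) and Ltc4s (111 instead of 72.7) higher.

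**Figure D1:**
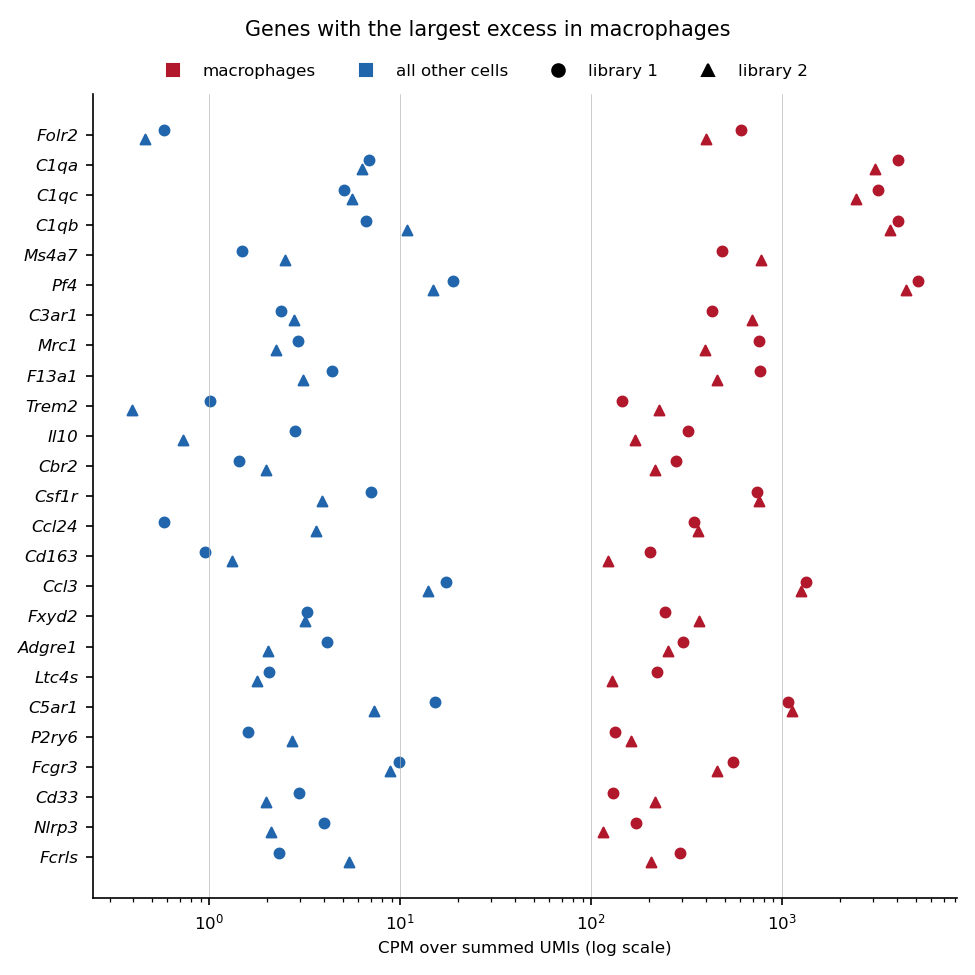
CPM (log scale) of the 25 genes with the largest excess over other cells and at least 100 CPM in macrophages, in macrophages (red) and all other cells (blue), with circles for library 1 and triangles for library 2. Every macrophage value lies to the right of both values of other cells for the same gene, from Folr2 (863-fold or more in both libraries) at the top to Fcrls (38.1-fold or more) at the bottom.

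The 25 genes with the largest excess began with Folr2, a folate receptor of resident macrophages. It stood at 611 and 397 CPM in macrophages, against 0.582 and 0.460 CPM in other cells, which is 1049-fold (exact 95% counting interval 578 to 2126) and 863-fold (406 to 2192). A UMI of Folr2 was found in 64.2% and 44.9% of macrophages, so not every cell shared it. C1qa, C1qb and C1qc, which the rule used, were 586-fold and 487-fold, 613-fold and 337-fold, and 625-fold and 435-fold higher. Pf4 was at 5124 and 4436 CPM, against 18.8 and 14.9, and F13a1 at 767 and 454 CPM, against 4.39 and 3.09. Both libraries gave the same order of magnitude for each of these genes.

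Several receptors were among the 25 genes. Mrc1, the mannose receptor CD206, had 756 and 394 CPM, against 2.91 and 2.24 CPM in other cells. Cd163, the receptor for haemoglobin bound to haptoglobin, had 204 and 122 CPM, against 0.953 and 1.32. Trem2, a lipid-sensing receptor of phagocytes, had 146 and 225 CPM, against 1.006 and 0.395. The receptors of the complement fragments C3a and C5a were both present, with C3ar1 at 430 and 699 CPM against 2.38 and 2.76, and C5ar1 at 1078 and 1126 CPM against 15.2 and 7.30. Ms4a7, Cd33, Fcgr3, P2ry6, a receptor for the nucleotide UDP, and Fcrls, a mouse gene also used as a microglial marker, were between 38.1-fold and 327-fold higher in both libraries. Enzymes were among them too: Cbr2, a carbonyl reductase, had 278 and 215 CPM against 1.43 and 1.97, and Ltc4s, which makes leukotriene C4, had 222 and 129 CPM against 2.06 and 1.78.

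The genes lowest in macrophages were stromal and contractile. Myoc, a secreted glycoprotein, had 1 and 2 UMIs in macrophages, or 2.17 and 6.62 CPM, against 342 and 269 CPM in other cells. That is 157-fold lower in library 1 (exact counting interval 28.2 to 6207) and 40.7-fold lower in library 2 (11.3 to 336). Acta2, smooth muscle actin, had 1 UMI in each library, against 159 and 128 CPM in other cells. Rarres2, which encodes the chemoattractant chemerin, had 4 and 2 UMIs (32.8-fold and 35.2-fold lower), and Pi16, a marker of adventitial progenitors, 5 and 3 UMIs (37.2-fold and 29.0-fold lower). Col6a1, a chain of collagen VI, had 15.2 CPM in library 1 against 349, and 0 UMIs in library 2 against 239 CPM, at least 24.1-fold lower there when set against a floor of 3 UMIs. Htra1, Ccdc80 and Clec3b completed the 8 genes.

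**Figure D2:**
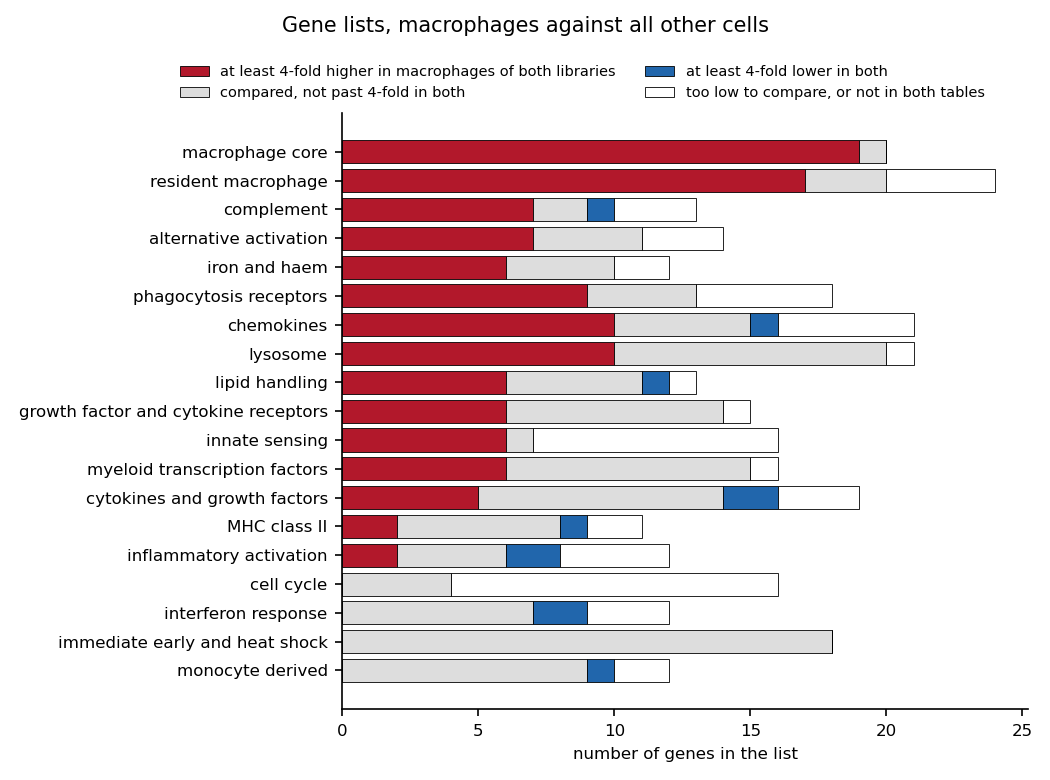
Number of genes (x axis) in each of 19 lists of macrophage biology that were at least 4-fold higher (red), compared but not past 4-fold (grey), at least 4-fold lower (blue) or not compared (white) in macrophages against all other cells of both libraries. The core and resident lists are mostly red (4 core genes and the 3 C1q genes of the complement list were used to choose the cells), and the immediate early, interferon, cell cycle and monocyte lists hold no red.

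The list counts from here on stand beside the shares of all genes compared, 4.98% higher and 8.23% lower. A gene can pass the limit of 20 CPM through macrophages alone, so these counts are a description. Complement genes other than C1q, whose 3 genes the rule used, were higher for receptors and for properdin. Of these 10 members 7 were compared and 4 were higher, namely C3ar1, C5ar1, Itgam (complement receptor 3, CD11b; 172 and 76.1 CPM against 5.03 and 3.22) and Cfp, which encodes properdin (343 and 159 CPM against 11.7 and 14.01). C3, the central component of the cascade, was lower, with 30.4 and 6.62 CPM in macrophages, against 236 and 130 CPM in other cells. C4b had 65.2 and 29.8 CPM, against 26.1 and 14.2, and did not pass 4-fold in both libraries.

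Of 24 resident macrophage genes 20 were compared, of which 17 were higher and 0 lower, though many were found in part of the cells. Besides Folr2, Pf4, F13a1, Mrc1, Cd163, Cbr2 and Ltc4s these included Sepp1, which encodes selenoprotein P, at 2856 and 3109 CPM, against 309 and 349. Mgl2, a galactose-binding lectin, had 561 and 258 CPM, against 9.63 and 7.56. Lyve1, a hyaluronan receptor shared with lymphatic vessels, had 469 and 146 CPM, against 20.96 and 18.2, and a UMI in 50% and 25.5% of macrophages. Timd4, which binds phosphatidylserine on dying cells, had 91.3 and 49.7 CPM, against 1.91 and 0.921, and a UMI in 18.9% and 7.14% of them. In the cells with Cd79a and Cd79b UMIs, 0 and 1 cells held a Timd4 UMI and 0 in either library a Cd163 UMI. The transcription factor Maf, which helps keep macrophages in their differentiated state, was also higher, at 280 and 142 CPM against 29.4 and 21.3.

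Monocyte genes showed no excess past 4-fold in both libraries. Of 12 members 10 were compared, of which 0 were higher and 1 was lower, near the shares of all genes (4.98% higher and 8.23% lower), so the count is no result about the list. Ccr2, the receptor that draws monocytes out of the marrow, had 139 and 72.8 CPM in macrophages, against 19.9 and 20.8, and a UMI in 24.5% and 11.2% of macrophages, against 0.345% and 0.295% of the cells with Cd79a and Cd79b UMIs. S100a4 had 830 and 424 CPM against 211 and 116. Chil3, an inflammatory monocyte and alternative activation gene, had 32.6 and 0 CPM. Ly6c2 and Plac8 differed between the libraries, as described for the comparison of both.

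The class II antigen presentation genes, which B cells carry as well, were above the level of other cells but mostly short of 4-fold. H2-Aa had 5542 and 3943 CPM in macrophages, against 1746 and 1090 CPM in other cells, and H2-Ab1 had 5485 and 5065 CPM, against 1784 and 1333. Cd74, the invariant chain, had 9862 and 15448 CPM, against 4028 and 3909. None of these reached 4-fold in both libraries. Of 11 members 9 were compared and 2 were higher, H2-DMb1 (328 and 162 CPM against 53.4 and 32.2) and the co-stimulatory ligand Cd86 (213 and 315 CPM against 47.6 and 36.1). H2-DMb2 was lower (2.17 and 19.9 CPM against 248 and 122).

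Uptake and digestion genes were higher in part. Of 18 phagocytosis receptors 13 were compared and 9 were higher, among them the Fc receptors Fcgr1 (100 and 103 CPM against 1.75 and 0.592), Fcgr2b and Fcgr3, and the scavenger receptors Msr1 (106 and 99.3 CPM against 3.28 and 1.25) and Stab1. Mertk, an engulfment receptor often used to define macrophages, had only 15.2 and 16.6 CPM, against 6.19 and 6.91, Tyro3 had 0 UMIs in both, and Axl stood at 84.8 and 89.4 CPM against 151 and 103. Of 20 lysosome genes other than Lyz2, 19 were compared and 9 were higher, such as the proteases Ctss (1634 and 1152 CPM against 185 and 87.8), Ctsc (1400 and 679 CPM against 68.7 and 37.0) and Lgmn (1204 and 1255 CPM against 61.4 and 63.3). Ctsl stood at 426 and 305 CPM in macrophages, against 526 and 508 CPM in other cells.

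Iron and lipid genes were higher in part too. Of 12 iron and haem genes 10 were compared and 6 were higher, such as Ftl1, the light ferritin chain (15155 and 30674 CPM against 3244 and 5492), Slc11a1, a metal transporter of the phagosome (211 and 195 CPM against 5.82 and 6.71), and Trf, which encodes transferrin (643 and 397 CPM against 45.4 and 48.5). Hmox1, haem oxygenase, had 3312 and 6866 CPM, against 544 and 1755, and fell just short of 4-fold in library 2. Of 13 lipid genes 12 were compared, of which 6 were higher and 1 lower. Apoe, the main carrier of lipid out of macrophages, had 13084 and 13253 CPM, against 671 and 741, and Abca1, a cholesterol exporter, 226 and 245 CPM, against 25.1 and 42.4. Fabp4, a fatty acid binding protein that is abundant in capillaries, was lower, with 439 and 374 CPM against 2783 and 2374, and Lpl, which frees fatty acids from lipoproteins, stood at 71.7 and 119 CPM against 300.3 and 201.

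Chemokines were the largest group of secreted signals. Of 21 members 16 were compared and 10 were higher, among them the neutrophil attractant Cxcl2 (9079 and 14249 CPM against 391 and 776), Ccl3, Ccl4, Ccl6, Ccl9, Ccl12 and Cxcl16. Another was Ccl24, the eosinophil attractant eotaxin-2 (343 and 361 CPM against 0.582 and 3.62). Ccl2 and Ccl7, which attract monocytes, had 2006 and 2116 CPM against 917 and 1159, and 2525 and 3652 CPM against 729 and 545, and did not pass 4-fold in both libraries. Cxcl12, a stromal chemokine, was lower, with 71.7 and 26.5 CPM against 385 and 240, and Ccl17 had 0 UMIs. Of 19 cytokines and growth factors 16 were compared, of which 5 were higher (Tnf, Il1a, Il1rn, Il10 and Osm) and 2 lower. Against the share of all genes (8.23% lower) the count of 2 is no result about the list. Tnf stood at 230 and 308 CPM, against 18.3 and 13.1. Il6 (65.2 and 56.3 CPM against 350 and 662) and Gpnmb were lower, and Igf1, a growth factor for muscle, had 150 and 232 CPM, against 164 and 78.5.

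Some secreted products came from a few cells. Retnla, which encodes the alternative activation product RELM alpha, had 1382 and 2751 CPM in macrophages, against 22.7 and 74.3 CPM in other cells, but a UMI in 20.8% and 14.3% of macrophages, and the 5 highest cells held 83.5% and 90.6% of all its UMIs. Il10, an anti-inflammatory cytokine, had 322 and 169 CPM, against 2.81 and 0.723, with a UMI in 21.7% and 13.3% of macrophages and 68.9% and 76.5% of its UMIs in 5 cells. Ccl4 followed the same way in library 1, with 77.9% of its UMIs in 5 cells, and 46.0% in library 2. Lyz1, a lysozyme more typical of gut and lung, had 667 and 692 CPM, against 11.9 and 46.4, with 85.0% and 82.8% of its UMIs in 5 cells. For C1qb the 5 highest cells held 12.6% and 14.01%. CPM of the concentrated genes therefore describe few cells.

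Receptors, sensors and regulators of myeloid cells were higher in part. Of 15 growth factor and cytokine receptors 14 were compared and 6 were higher, among them Csf1r, Csf2ra, Csf2rb, Cx3cr1 (67.4 and 39.7 CPM against 1.80 and 0.723) and Ccr1. Of 16 innate sensing genes 7 were compared and 6 were higher, such as Cd14, a co-receptor for bacterial lipopolysaccharide (3538 and 5459 CPM against 97.3 and 75.6). Tlr2 (237 and 291 CPM against 16.8 and 19.3) and the inflammasome sensor Nlrp3 were higher too. Tlr4, the lipopolysaccharide receptor itself, had 13.04 and 16.6 CPM, against 7.25 and 6.97. Of 16 myeloid transcription factors 15 were compared and 6 were higher. Spi1, which encodes PU.1, stood at 348 and 699 CPM, against 40.2 and 33.9, and Zeb2 at 524 and 553 CPM, against 96.1 and 84.0. Irf8, which B cells use as well, had 120 and 106 CPM, against 134 and 152.

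Activation programmes were split. Of 14 alternative activation genes 11 were compared and 7 were higher. Of these 7, 6 (Mrc1, Cd163, Mgl2, Clec10a, Stab1 and Ccl24) are also on the resident list, the seventh being Retnla. Of 12 inflammatory genes 8 were compared, of which 2 were higher (Tnf and Cd86) and 2 lower, among them Il6. Nos2, which makes nitric oxide, had 2.17 and 0 CPM. Il1b had 669 and 262 CPM, against 111 and 102. Immediate early and heat shock genes, which rise during enzymatic release of cells from tissue, did not pass 4-fold in both libraries in either direction for any of 18 members. A count of 0 among 18 is near the shares of all genes and is no result about the list. Fos stood at 1723 and 483 CPM, against 1854 and 1176. Of 12 interferon response genes 9 were compared, of which 0 were higher and 2 lower, among them Gbp2. Against the shares of all genes (4.98% and 8.23%) such a small count is no result about the list. Of 16 cell cycle genes only 4 were high enough to compare, and 0 differed, with Mki67, a marker of cycling cells, at 10.9 and 0 CPM in macrophages.

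Macrophages were next compared with other myeloid and antigen-presenting cells. Set against class II-positive cells, they had more Apoe and Csf1r and less Fscn1. The set held cells with at least 10 UMIs of H2-Aa, H2-Ab1, H2-Eb1 and Cd74, at least 1 UMI of 8 dendritic cell markers, and none of C1q, Cd79a or Cd3d (120 and 171 cells, median 2778 and 1882 UMIs). Of these, 75 and 112 held a UMI of a B cell gene such as Cd79b, Ms4a1, Ly6d or Ebf1, and Igkc, Ly6d and Cd79b were among its leading genes beside Ccr7, so it is called by its class II genes here and not as dendritic cells. Of 4889 genes 205 (4.19%) were at least 4-fold higher and 119 (2.43%) at least 4-fold lower in macrophages than in it. Without the cells that held a B cell gene, which left 45 and 59, a choice made after seeing these genes, 173 were higher and 93 lower. Against the cells left, Apoe was higher (13084 and 13253 CPM against 275 and 194), as was Csf1r (741 and 755 CPM against 71.7 and 38.0). Lower was Fscn1, which bundles actin in mature dendritic cells (26.1 and 6.62 CPM against 426 and 297). The gate of the set used Ccr7 (6.52 and 9.93 CPM against 550 and 647) and Cd209a (95.6 and 72.8 CPM against 793 and 765), so their values are a description.

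The class II genes, which gated that set and so had to be high in it, are given for their levels only. H2-Ab1 stood at 5485 and 5065 CPM in macrophages, against 14847 and 13920 CPM in the class II cells without B cell genes, and Cd74 at 9862 and 15448 CPM, against 22607 and 35266. Ctss had 1634 and 1152 CPM, against 1331 and 742, and Ccr2 139 and 72.8 CPM, against 120 and 95.1. Against the full class II set, 382 genes were higher and 333 lower without library 1, and 472 and 284 without library 2.

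Neutrophil-like cells were few, with 36 and 20 cells that held at least 10 UMIs of S100a8 and S100a9 and none of C1q, Cd79a or Cd3d. Of 4550 genes 172 (3.78%) were at least 4-fold higher and 140 (3.08%) at least 4-fold lower in macrophages than in them. Without library 1 these were 526 and 594, and without library 2 they were 553 and 512. Macrophages had more of the class II genes (H2-Eb1 3655 and 3337 CPM against 23.6 and 28.9), Ctsc (1400 and 679 CPM against 11.8 and 14.4), Apoe and the phagocytic adaptor Dab2 (756 and 470 CPM against 23.6 and 14.4). They had less Retnlg (2.17 and 36.4 CPM against 10418 and 13397) and less of the granule genes Camp, Ngp and Lcn2, with Ngp at 2.17 and 16.6 CPM against 1524 and 38199. S100a8 stood at 128 and 119 CPM in macrophages, against 116900 and 163440 CPM in the neutrophil-like cells, which restates the gate of that set, and the source of the low level in macrophages was not tested.

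Within the macrophages, cells with resident genes had lower mean class II levels than cells without, in both libraries. To set depth aside, each macrophage was thinned to 1000 UMIs, which left out 1 shallower cell per library. At least 1 UMI of Lyve1, Folr2, Timd4 or Cd163 was then seen in 57 of 105 macrophages of library 1 and 37 of 97 of library 2. In library 1 the cells with a resident gene UMI held 20.1 ± 25.3 class II UMIs (H2-Aa, H2-Ab1, H2-Eb1 and Cd74) per 1000, against 27.9 ± 29.5 in those without (SD over cells). In library 2 they held 14.2 ± 25.7, against 31.6 ± 32.5. The medians were 8 against 17.5 in library 1 and 1 against 18 in library 2. The difference in means, with minus without, was -7.75 and -17.4, or -12.6 ± 6.84 (SD, n = 2 libraries), and was smaller than the spread between cells in each library. No test was run, since an exact two-sided test over 2 libraries cannot give a p below 0.5.

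**Figure D3:**
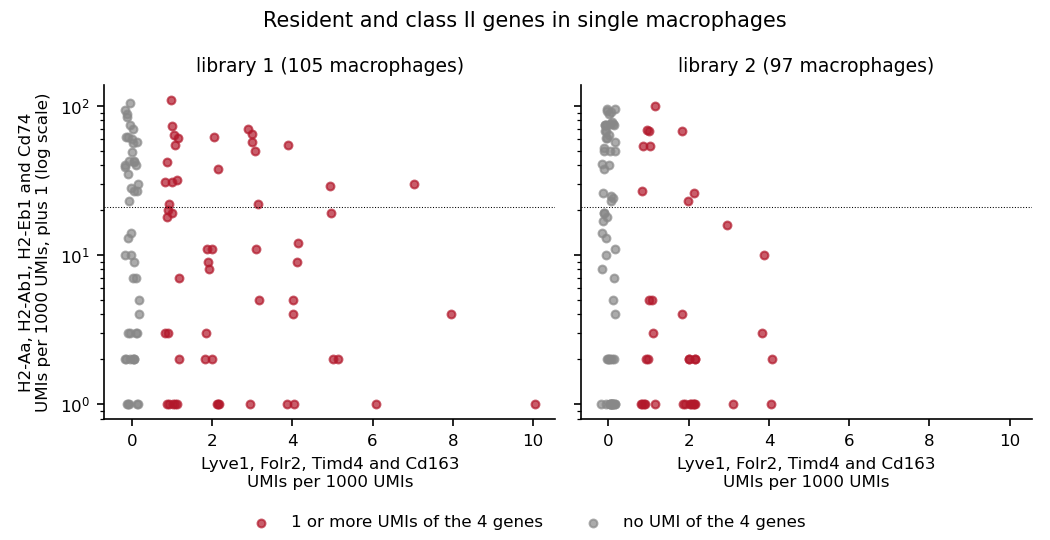
Class II UMIs (y axis, plus 1, log scale) against the sum of Lyve1, Folr2, Timd4 and Cd163 UMIs (x axis, with small sideways jitter) in each macrophage thinned to 1000 UMIs, for library 1 (105 cells) and library 2 (97 cells), with cells holding 1 or more resident gene UMIs in red and others in grey. Class II runs from 0 to 109 and from 0 to 99 UMIs per cell, and cells with resident genes lie on both sides of the dotted line at 20 class II UMIs.

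Class II itself spread over the full range. It ran from 0 to 109 UMIs per 1000 in library 1 (median 10) and from 0 to 99 in library 2 (median 7). At most 2 class II UMIs were held by 36 and 42 macrophages, 3 to 19 by 25 and 17, and 20 or more by 44 and 38. A resident gene UMI together with 20 or more class II UMIs was found in 20 and 9 macrophages, and neither in 24 and 31. With thinning to 2000 UMIs instead, which left 97 and 78 cells, the means were 16.3 against 38.4 and 14.1 against 42.0 per 1000, so the difference was -22.2 and -27.9. With all UMIs of the cells counted for class II, the means were 19.5 against 27.5 and 13.98 against 32.5 per 1000. The cells were still split on the counts thinned to 1000 UMIs there, so those means do not check the split itself. The median depth before thinning was 3706 UMIs in cells with a resident gene against 4999 in those without in library 1, and 2675 against 3294 in library 2.

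Other genes went with the split, which was made on 4 genes of the same cells after thinning. The CPM given here count all UMIs of these cells. At full depth the cells without a resident gene UMI after thinning still held some. They held 52 and 28 UMIs of Folr2, against 228 and 92 in the cells with one. For Lyve1 they held 30 and 14 (against 186 and 29), and for Cd163 14 and 7 (against 78 and 30). Of 693 genes at 200 CPM or more in either set of both libraries, 18 (2.6%) were at least 2-fold higher in cells with a resident gene UMI after thinning. At least 2-fold lower in these cells were 13 (1.88%). Among the 115 listed genes compared, 10 were higher, among them Ltc4s (360 and 284 CPM against 96.0 and 54.3), Cbr2 (455 and 415 CPM against 117 and 119), Gas6, a bridge between dying cells and engulfment receptors (501 and 385 CPM against 163 and 124), F13a1 (1079 and 912 CPM against 480 and 232), Mrc1, Maf, Stab1, Fcgrt and Pltp. The 5 lower ones were Cd14 (1971 and 3253 CPM against 4988 and 6556), Lgals3 (760 and 2027 CPM against 1999 and 4506), Il1b (310 and 101 CPM against 1002 and 341), H2-DMb1 and Lyz1. In library 2 Il1b rested on 10 against 69 UMIs and H2-DMb1 on 7 against 42. Lyz1 had 47 against 260 UMIs in library 1 and 13 against 196 in library 2. Most Lyz1 UMIs lay in 5 cells per library, as given above, so its difference can rest on where few cells fell. Ccr2 had a UMI in 1.75% of cells with a resident gene against 22.9% of those without in library 1, and in 5.41% against 10% in library 2, after thinning. In library 1 that is 1 cell against 11, and in library 2 it is 2 cells against 6. With all UMIs counted for Ccr2 in the same cells, still split after thinning, the shares were 7.02% against 45.8% and 5.41% against 15%. C1qa stood at 5185 and 3820 CPM in cells with a resident gene, against 2968 and 2722.

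Between the libraries the macrophages were alike for most genes and differed for some. The comparison of library 1 with library 2 has 1 library on each side and no test. Their deposited names carry different dates, so library and date cannot be told apart. Of 1411 genes at 100 CPM or more in the higher library, 87 were at least 2-fold higher in macrophages of library 1 and 96 at least 2-fold higher in those of library 2, with a median ratio of 0.991. Klf2, a transcription factor that quiets myeloid cells, had 1260 CPM in library 1, against 232 CPM in library 2, and Btg2, an immediate early gene, 674 against 122. In all other cells Klf2 had 1728 against 827 CPM and Btg2 1001 against 583, so they moved the same way. The monocyte genes Plac8 (116 UMIs against 2) and Ly6c2 (83 against 3) were found in 8 and 6 macrophages of library 1 and in 2 and 2 of library 2, with up to 30 UMIs of either in 1 cell.

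**Figure D4:**
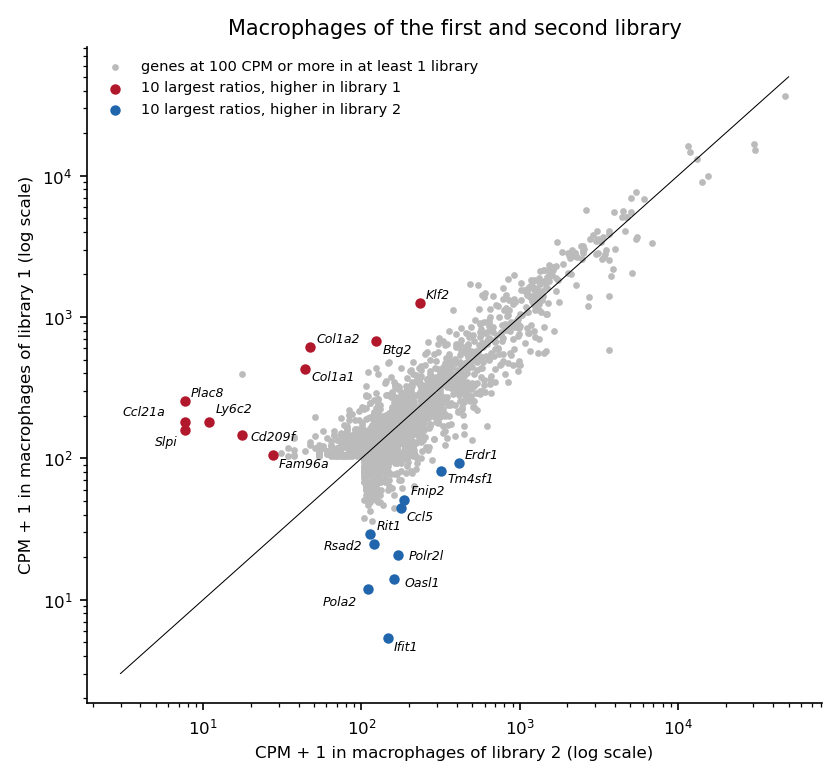
CPM plus 1 (log scales) in macrophages of library 1 (y axis) against library 2 (x axis) for genes at 100 CPM or more in at least 1 of them, with the 10 largest ratios named in each direction (red, higher in library 1; blue, higher in library 2; predicted, mitochondrial and ribosomal protein genes not named). Most genes follow the diagonal, and Plac8 at 252 against 6.62 CPM and Ifit1 at 4.35 against 146 CPM lie farthest from it among those named.

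Single cells made some of these differences. Col1a2, a collagen chain of stromal cells, had 280 UMIs in macrophages of library 1 against 14 in library 2, and 245 of the 280 were in 1 cell, and for Col1a1 174 of 198 were in 1 cell. Ccl21a, a chemokine of lymphatic vessels, had 82 UMIs against 2, with 80 in 1 cell, and Slpi, a protease inhibitor, 73 against 2, with 60 in 1 cell. The interferon response genes Ifit1, Oasl1 and Rsad2 were higher in library 2. Ifit1 had 2 UMIs in library 1 against 44 in library 2 (4.35 against 146 CPM), found in 2 against 15 macrophages, while all other cells had 47.8 against 186 CPM. Oasl1, a brake on interferon production, had 13.04 against 159 CPM, and was found in 3 against 31 macrophages. Rsad2 had 23.9 against 119 CPM in macrophages and 31.7 against 102 CPM in other cells. Erdr1, Pola2, Polr2l and Tm4sf1 were also higher in library 2 in both macrophages and other cells. Rit1 and Fnip2 were 3.98-fold and 3.71-fold higher in macrophages of library 2, and 1.20-fold and 1.55-fold higher in its other cells. Cd209f, a lectin of resident macrophages, had 146 CPM in library 1 against 16.6 in library 2. The second value rests on 5 UMIs in 3 macrophages, and other cells held 6 and 1 UMIs of it. All these genes were chosen for their ratio in macrophages. That choice favours a larger factor there than in other cells, so the comparison of both factors cannot show a change particular to macrophages.

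The bulk libraries give the level of macrophage genes in sorted populations from which CD45-positive cells had been removed. Their values are FPKM (fragments per kilobase of transcript and 1000000 fragments), and the rule that chose the macrophages did not use them. In fresh SMMC the C1q genes and Adgre1 were at or near 0, while Lyz2 was high. Lyz2 had 515, 155 and 99.0 FPKM in the 3 fresh SMMC libraries, against 0.387 and 0.327 FPKM in the 2 MuSC libraries. No library overlapped, and limma's test gave a log2 change of 7.21 ± 0.52 (SE, adjusted p = 3.0e-07) on the log2(FPKM + 1) scale. C1q genes were far lower. C1qa had 0.155, 1.90 and 0.775 FPKM in the same fresh libraries, against 0.0339 and 0 in MuSC, C1qb 0, 1.11 and 1.32, against 0.230 and 0.0308, and C1qc 0.198, 1.17 and 0.673, against 0 and 0.124. C1qa and C1qc did not pass the filter of 1 FPKM in 2 libraries and were not tested. The fresh library with the most Lyz2 had the least of all 3 C1q genes. Adgre1 stayed at or below 0.0155 FPKM and Tyrobp, a signalling adaptor of myeloid receptors, at or below 0.126 in fresh SMMC. In bulk samples fewer cells of a type and less RNA per cell cannot be told apart.

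**Figure D5:**
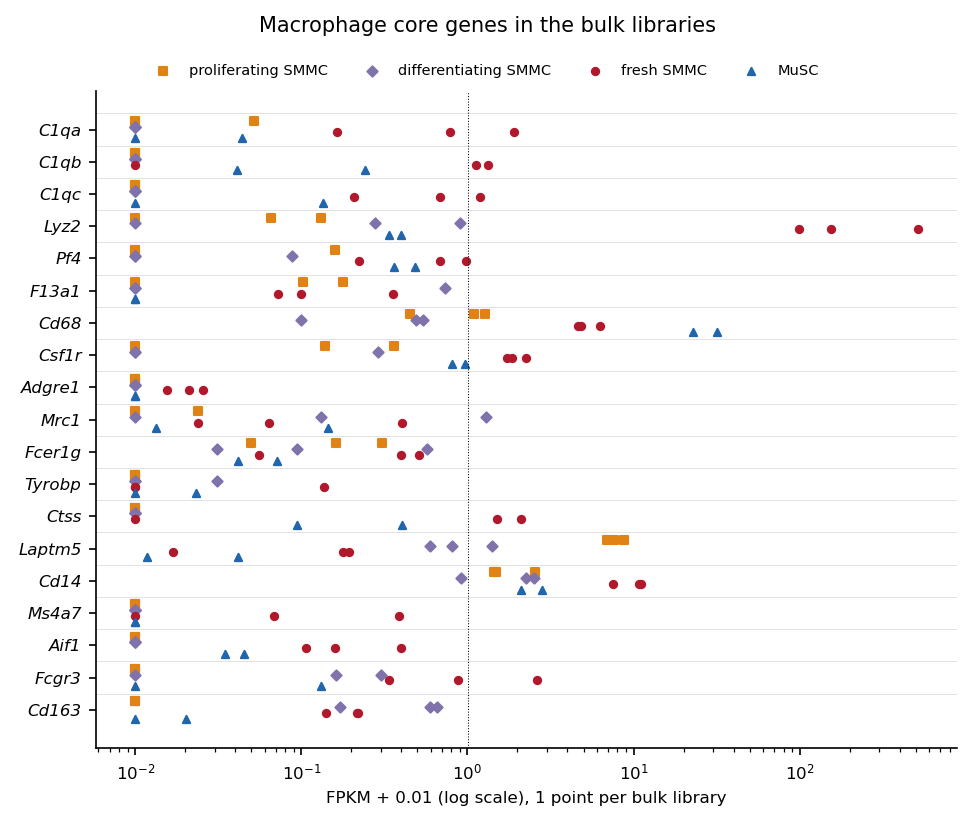
FPKM plus 0.01 (log scale) of 19 macrophage core genes in the 11 bulk libraries, 1 point per library, for proliferating SMMC (n = 3), differentiating SMMC (n = 3), fresh SMMC (n = 3) and MuSC (n = 2), with a dotted line at 1 FPKM. Fresh SMMC lie to the right for Lyz2 (99.0 to 515 FPKM), while the C1q genes, Pf4 and Adgre1 stay below 2 FPKM in all libraries.

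Of the 20 core genes 8 passed the filter of 1 FPKM in 2 libraries. Against MuSC, 4 of them were higher and 1 lower in fresh SMMC, in a comparison in which 41.7% of 13233 genes were higher and 18% lower. Lyz2, Csf1r, C1qb and Ctss reached 1 FPKM in fresh SMMC only, so the count leans towards higher genes and is a description. The higher ones included, beside Lyz2, Cd14 (7.48, 10.8 and 11.04 FPKM against 2.09 and 2.82, log2 change 1.63 ± 0.31, limma adjusted p = 6.2e-04) and Csf1r. Csf1r had 1.85, 1.72 and 2.25 FPKM in fresh SMMC, against 0.956 and 0.803 in MuSC (log2 change 0.64 ± 0.20, limma adjusted p = 0.0132). Its call was lost with a pseudocount of 0.1 (limma adjusted p = 0.213) and without MuSC replicate 2 (0.0984), and quantile normalization turned its direction (log2 change -0.0905, limma adjusted p = 0.726). Cd68, a lysosomal protein much used as a macrophage marker, was lower, with 4.65, 6.27 and 4.79 FPKM in fresh SMMC against 31.8 and 22.9 in MuSC (log2 change -2.18 ± 0.28, limma adjusted p = 2.6e-05), and no library overlapped. C1qb (limma adjusted p = 0.0924) and Ctss (0.116) were not called, nor was Laptm5. C1qb and Ctss were both called without fresh SMMC replicate 1, in which both are listed at 0 (limma adjusted p = 1.4e-04 for each). Without fresh SMMC replicate 2 or 3 neither of them passed the filter, so neither was tested.

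After culture most of these genes were lower. Of the same 8 genes 7 were lower and 1 higher in proliferating than in fresh SMMC, where 35.4% of the 13233 genes were lower and 33.1% higher. Lyz2, Csf1r, Ctss and C1qb had passed the filter through fresh SMMC only, and Laptm5 through cultured SMMC only. Their direction here was thus largely set by the filter, and the count is no result about the list. The fresh libraries enter both comparisons. Lyz2 had 0, 0.121 and 0.0559 FPKM in proliferating SMMC, against 515, 155 and 99.0 in fresh SMMC (log2 change -7.57 ± 0.47, limma adjusted p = 5.3e-08). Csf1r, Cd14, Cd68, Ctss and C1qb were also lower. The C1qb call (limma adjusted p = 0.0183) was lost with quantile normalization (0.0569) and with only these groups in the fit (0.0506). Laptm5 was the higher one, with 7.63, 8.70 and 6.91 FPKM in proliferating SMMC, against 0.00692, 0.167 and 0.184 in fresh SMMC (log2 change 2.96 ± 0.19, limma adjusted p = 8.3e-08), while C1qa, C1qb, C1qc, Adgre1 and Ms4a7 were listed at or below 0.0416 FPKM in the proliferating libraries.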

How the data were processed

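The single-cell tables held UMI counts per gene and cell, whole numbers in the form deposited by the authors. They were made, per the submitters' processing notes, with Cell Ranger 2.2.0, STAR 2.5.1b, R 3.5.1 and Seurat 2.3.4 on build mm10. The notes of the series also name Cell Ranger 2.1.0, Seurat 2.2, R 3.3.1 and R 3.4.3. The bulk table held FPKM per gene as the authors deposited it, with HISAT2 2.1.0, SAMtools 1.3.1 and StringTie among the tools in the notes. It had 4 further columns that matched no sample and were not used. Not given in the sources used here were the cell filters, the annotation, the strand setting and the handling of multi-mapped reads. The bulk depth is unknown.

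The libraries held 6144 cells with 19353328 UMIs and 6297 cells with 15507938 UMIs. Doublets were scored with Scrublet in scanpy 1.11.5 and kept. Counts were summed per library over macrophages and over all other cells and scaled to CPM. A gene was compared when it had at least 20 CPM in either set of both libraries, and a set at 0 was given a floor of 3 UMIs. Intervals are exact binomial (Clopper-Pearson) or exact conditional intervals at 95%. Bulk genes at 1 FPKM or more in at least 2 libraries were tested, two-sided, with limma 3.58.1 (R 4.3.3, intensity trend) on log2(FPKM + 1), all 11 libraries in one fit, and p-values were adjusted by Benjamini-Hochberg over all 13233 genes, with 0.05 as the limit. Such folds understate the change of low genes. The code was tested on simulated data. Sequences and positions are from RefSeq.

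The genes named were the markers, the 25 largest excesses and 8 largest deficits against other cells, the 10 largest ratios between libraries in each direction, the bulk core list, and examples with high levels or at 0 from 19 lists of macrophage biology and 14 of other cell types. Other list members named for not moving were chosen after their values were seen. The members and lists were chosen with earlier results of these data known. Genes absent from either table (such as Vsig4, Clec7a and Arg1) were not compared. Some members of the lists enter the counts but are not reported here. Alternatives concerned the gate, doublets, cells with markers of other types, thinning, the fold and CPM limits, the weighting of cells, the pseudocount, the bulk filter, normalization, the libraries fitted, a replicate block and each library left out.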

Additional observations from a re-analysis of the deposited data

How the results depend on the processing

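Of 98 alternative values of the main counts and differences 76 stayed within the limits set (1.5 times for counts of genes, 1 SD for means). The number of macrophages, 102 ± 5.66 per library (SD, n = 2), was 94.5 when cells were first thinned to 1000 UMIs, 85.5 without cells holding 10 UMIs of another type, an alternative added after seeing the data, and 15.5 without cells holding 2. It ran from 98 to 106 with either library alone. The counts of 280 higher and 462 lower genes were 151 and 178 at 8-fold, and 151 and 163 at a minimum of 100 CPM, and 65 were lower without cells holding 2 UMIs of another type, in which fewer cells were summed. With 1 library left out they ran from 356 to 406 and from 721 to 753. Against the class II cells they ran from 382 to 472 higher and from 284 to 333 lower, and against neutrophil-like cells from 526 to 553 and from 512 to 594. The class II difference within macrophages, -12.6 ± 6.84 UMIs per 1000, was -25.05 with thinning to 2000 UMIs, and ran from -17.4 to -7.75 over single libraries.

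In bulk, 5522 genes were higher and 2384 lower in fresh SMMC than in MuSC. A filter at 10 FPKM left 3539 higher, and quantile normalization gave 4027 lower. Of the 4381 higher and 4680 lower in proliferating than in fresh SMMC, 2599 lower were left at 10 FPKM, where fewer genes are tested. With 1 library left out the counts ran from 4262 to 5453, 1626 to 2242, 4012 to 4396 and 4088 to 4572. Csf1r had a log2 change of -0.0905 with quantile normalization; the cause was not tested. With the replicate number as a block the counts were 5314, 2328, 4371 and 4668. The numbers pair no samples in the labels, and same-numbered libraries correlated at 0.0112 to 0.117. Class II differences rest on few UMIs in shallow cells, and genes under 20 CPM in both macrophages and other cells of a library were not compared at this depth.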
